A study of Mus musculus with 8 samples.

Results

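The genes described here encode the proteins of the cytosolic ribosome of the mouse. They were taken by symbol from a deposited gene table: Rps or Rpl followed by a number and at most 1 of the letters a, x or l, together with Rplp0, Rplp1, Rplp2 and Rpsa. The rule found 80 of 20793 rows. They comprise 30 proteins of the small subunit, 43 of the large subunit, the 3 acidic proteins of the large subunit's stalk, and 4 paralogues whose symbols end in l (Rpl3l, Rpl10l, Rpl39l and Rps27l).

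Each cytosolic ribosome joins a small subunit, which reads the messenger RNA, and a large subunit, which makes the peptide bonds. Its proteins are needed in nearly equal numbers, so their genes are usually expressed together, and their messenger RNAs are among the most abundant in growing cells. Most of these messenger RNAs begin with a C followed by a run of pyrimidines, the 5' terminal oligopyrimidine tract, through which mTOR signalling adjusts their translation.

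The cells were brain neural progenitors of FvB/C57BL/6 mice, infected with lentivirus carrying hairpin RNAs and selected in puromycin for 3 days. Proliferating cultures were kept in N2 medium with EGF and bFGF at 20 ng/ml, and differentiating cultures in neurobasal medium with B27 for 5 days. A non-targeted control (NT) had 2 libraries in each state, named TRC and GFP when proliferating and 7 and GFP-D when differentiating. A FUBP1-targeted and a CIC-targeted culture had 1 library in each state (FUBP1, FUBP1-D, CIC and CIC-D), so these 2 arms had no spread of their own within a state. FUBP1 is a DNA- and RNA-binding protein, and CIC is a transcriptional repressor. The labels do not say whether libraries came from separate cultures or animals, how many hairpins were used for a gene, or which protocol was used for CIC beyond its label. The p-values therefore measure no more than how these 8 libraries vary, which may be technical variation.

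Levels are in FPKM, that is sequenced fragments scaled to transcript length and to library size, and no read counts come with them, so the depth behind them is unknown. A total of 77 members and 11968 rows had at least 1 FPKM in at least 2 libraries and were tested. The summed FPKM of the table was between 505977 and 541608 in the proliferating libraries and between 426984 and 448571 in the differentiating ones. Fubp1 itself stood at 34.8 FPKM in the library labelled FUBP1 against 50.2 in TRC and 12.4 in GFP, and at 21.6 in the library labelled FUBP1-D against 24.8 in 7 and 25.4 in GFP-D. The library labelled FUBP1 was thus not below both of its controls. Cic stood at 13.3 FPKM in CIC against 39.4 in TRC and 33.8 in GFP, and at 25.6 in CIC-D against 42.0 in 7 and 35.3 in GFP-D. Of 13 progenitor markers 12 passed the filter, and between the states 3 were called higher and 3 lower in the model given below; their sum lay between 3814 and 5433 FPKM in proliferating and between 3149 and 4846 FPKM in differentiating libraries. Summed astrocyte markers lay between 273 and 374 FPKM in proliferating libraries and between 1038 and 1369 FPKM in differentiating ones, with 6 of the 9 that passed the filter called higher. Of 12 neuronal markers 5 passed, with Tubb3 called higher (from a mean of 0.137 to 1.92 FPKM) and Gap43 lower (from 73.0 to 1.77 FPKM), and their sum lay between 31.6 and 310 and between 43.7 and 64.7 FPKM. Among neuronal markers Map2 stood at means of 45.4 and 47.1 FPKM, Dcx and Rbfox3 had means of at most 0.0243 FPKM in either state, and Slc17a6 was at 0 in all libraries. Summed oligodendrocyte lineage markers lay between 53.7 and 111 and between 121 and 284 FPKM, with 2 of the 5 tested called higher. Cnp, at means of 62.2 and 167 FPKM, was the largest part of that sum, and Sox10, Mag and Mog did not pass the filter. Summed ependymal markers lay between 4.15 and 12 and between 33.4 and 52.3 FPKM, with 2 of the 3 tested called higher. Foxj1, at means of 8.21 and 36.3 FPKM, was the largest part of this sum. Summed microglial markers lay between 2.64 and 7.71 FPKM, with C1qa and C1qb at 0 in every library. Endothelial markers summed to between 0.438 and 4.72 FPKM with Cldn5 at 0, and mesenchymal ones to between 2.63 and 68.9 FPKM. Of the 7 mesenchymal markers only 1, Fbln2, passed the filter, and it held 66.9 of the 68.9 FPKM in GFP. Fbln2 was called lower, from a mean of 38.1 to 7.17 FPKM. The part of these other cell types in the results was not tested, and in bulk RNA fewer cells of a type cannot be told apart from less RNA per cell.

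The sequences around the start sites of the members that fell most and least with differentiation are shown first, because the pyrimidine run is what the members' messenger RNAs are known for. The stretches come from RefSeq on GRCm38.p6, which matched 57 of the tested members, and hold 25 bases before the annotated start and 30 bases from it, on the gene's own strand. Capitals mark a run of at least 6 pyrimidines counted from a C within 10 bases of the start, and pyrimidines before that C are not marked. Rpl26, Rpl12 and Rpl13a had the largest falls among the matched members, and Rps15, Rpl38 and Rpl22 the smallest. Rps6, the substrate of S6 kinase, and Rps27 with its paralogue Rps27l are described further on.
Rpl26 (chr11:68901541-68901595, plus strand): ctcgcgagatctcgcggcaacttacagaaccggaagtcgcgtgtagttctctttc
Rpl12 (chr2:32961687-32961741, plus strand): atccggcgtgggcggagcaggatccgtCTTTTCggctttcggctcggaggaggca
Rpl13a (chr7:45128716-45128770, minus strand): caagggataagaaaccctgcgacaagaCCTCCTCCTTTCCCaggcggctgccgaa
Rps15 (chr10:80292406-80292460, plus strand): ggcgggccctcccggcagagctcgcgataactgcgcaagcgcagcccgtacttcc
Rpl38 (chr11:114668555-114668609, plus strand): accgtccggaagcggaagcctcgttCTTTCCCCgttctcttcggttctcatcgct
Rpl22 (chr4:152324411-152324465, plus strand): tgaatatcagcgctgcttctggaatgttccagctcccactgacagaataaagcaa
Rps6 (chr4:86857338-86857392, minus strand): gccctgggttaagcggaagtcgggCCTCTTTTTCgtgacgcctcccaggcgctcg
Rps27 (chr3:90213619-90213673, minus strand): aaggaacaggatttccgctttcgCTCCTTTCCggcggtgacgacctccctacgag
Rps27l (chr9:66946061-66946115, plus strand): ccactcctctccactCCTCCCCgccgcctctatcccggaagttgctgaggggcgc

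A run of this kind was present in 32 of the 57 matched members (56.1%) and in 5910 of the 27025 genes of the same table (21.9%). The printed stretches of Rpl22 and Rps27l are each 1 of 2 entries for the gene, taken for the longer run. That of Rpl22 holds no such run, nor do those of Rpl26 and Rps15. In Rps27l the marked 7 bases begin 10 bases before the start, follow further pyrimidines and end before the start. The other entry of Rps27l has a run of 4. The median log2 difference between the states, defined below, was -1.53 for members with a run and -1.45 for members without. The letters CCGGAAGT, a core bound by ETS factors such as GABPA, were found on either strand of the 250 bases before and 50 bases after the start in 12 of 57 members (21.1%) and in 4.31% of all genes. AAGATGGC, a core bound by YY1, was found likewise in 5 of 57 members (8.77%) and in 3.19% of all genes. The printed stretches of Rpl26 and Rps27l contain the first of these cores. These matches are descriptions of annotated sequence, and the start sites used by these cells were not measured.

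Cytosolic ribosomal protein genes were among the most abundant rows of the table in every library. Their summed level was 82150 FPKM in TRC, 101183 in GFP, 82731 in FUBP1 and 72795 in CIC. In the differentiating libraries it was 32977 FPKM in 7, 30512 in GFP-D, 25094 in CIC-D and 32517 in FUBP1-D. Every differentiating library lay far below every proliferating one, and the mean of the differentiating sums was 35.7% of the proliferating mean. As a share of the table, the members took 16% in TRC, 18.7% in GFP, 16% in FUBP1 and 14.4% in CIC. They took 7.61% in 7, 7.01% in GFP-D, 5.59% in CIC-D and 7.62% in FUBP1-D. GFP held the highest share and CIC the lowest among proliferating libraries, and CIC-D was the lowest of all 8. The differentiating share was 42.7% of the proliferating one, and 43.8% without the 5 most abundant members.

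**Figure D1:**
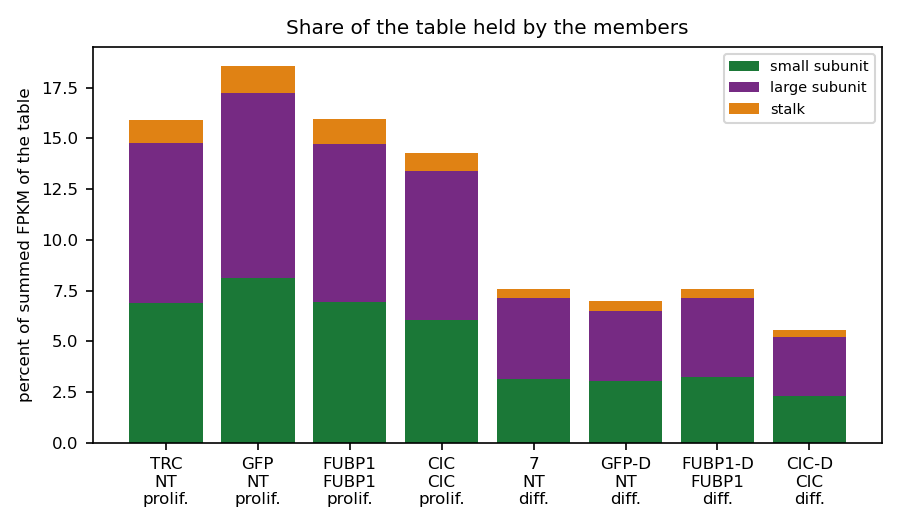
Share of the summed FPKM of the table (y axis, percent) held by small-subunit, large-subunit and stalk genes in each of the 8 libraries, without the 4 paralogues. The proliferating bars (TRC, GFP, FUBP1, CIC) are all higher than the differentiating ones, with GFP highest and CIC-D lowest.

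The most abundant member was Rpl41, which encodes a very short large-subunit protein. Its level was 4889 FPKM in TRC, 3282 in GFP, 4424 in FUBP1 and 1864 in CIC, and 1105 in 7, 1170 in GFP-D, 922 in CIC-D and 1431 in FUBP1-D. The 4 proliferating libraries thus spread widely, with CIC lowest, and none overlapped the differentiating ones. The stalk gene Rplp1 and the large-subunit gene Rpl39 followed, at 2878 ± 314 and 1948 ± 482 FPKM in proliferating libraries (SD, n = 4). In the small subunit Rps12, Rps28 and Rps15 were highest, with proliferating means of 2070 ± 449, 1907 ± 422 and 1672 ± 653 FPKM (SD, n = 4). FPKM divides by transcript length, and very short transcripts are poorly estimated on this scale, so the place of Rpl41, with 75 coding bases, and Rpl39, with 153, in this order is uncertain. The median member stood at a mean of 733 FPKM over the 8 libraries. A group of 7 members was much lower, under 200 FPKM on average, namely Rpl34, Rps27, Rpl30, Rpl26, Rps15a, Rpl22 and Rpl37.

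Of the 4 paralogues 3 did not reach the filter. Rpl10l and Rpl39l, which stand in for Rpl10 and Rpl39 in the male germ line, were listed at 0 in all 8 libraries. Rpl3l, the paralogue of Rpl3 in striated muscle, reached at most 0.275 FPKM. Rps27l, a paralogue of Rps27 that p53 can induce, was the only paralogue that passed, at 395 FPKM in TRC, 514 in GFP, 415 in FUBP1 and 548 in CIC. It stood at 215 FPKM in 7, 156 in GFP-D, 268 in CIC-D and 185 in FUBP1-D. CIC and CIC-D were the highest libraries of their states for Rps27l, in contrast to most members, for which they were low.

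**Figure D2:**
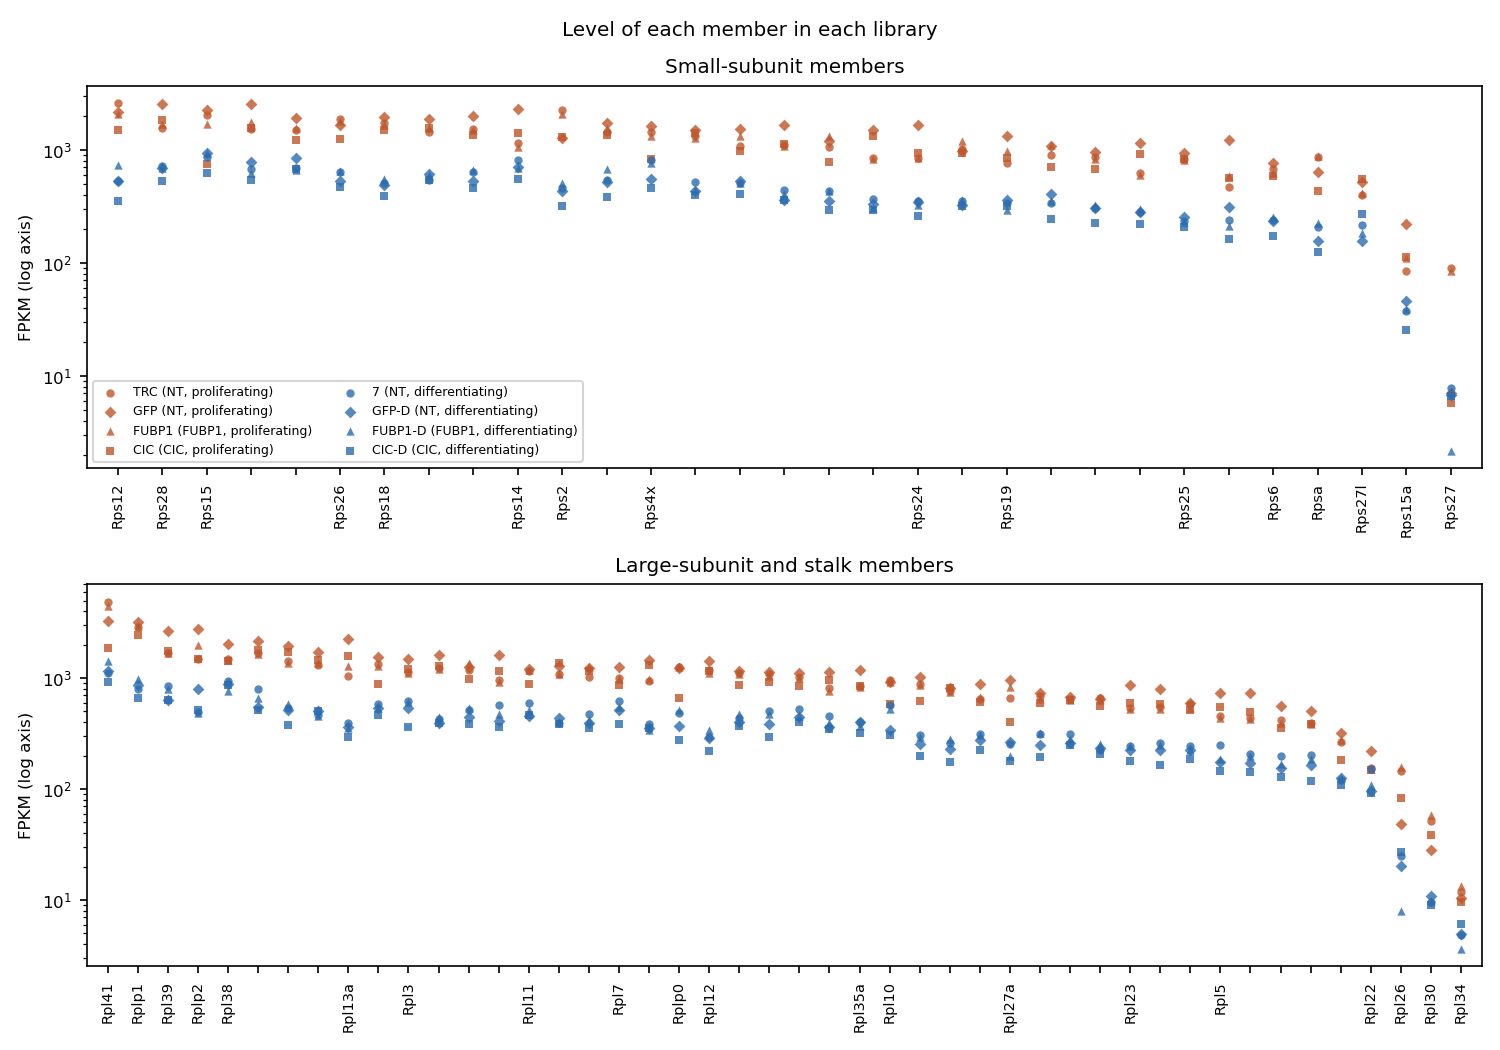
FPKM of each tested member (log axis) in each library, with members in order of mean level and the members singled out in the text labelled, proliferating libraries in orange and differentiating libraries in blue. Blue points lie below orange points for 74 of the 77 members, and Rps27, Rps15 and Rpl22 overlap.

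The main question the design addresses is how expression changes when proliferating progenitors are moved to differentiation conditions. Differences are given as log2(FPKM + 1), differentiating minus proliferating, from a limma model of state and arm fitted over all 11968 rows, and a row was called at an adjusted p under 0.05. Ribosomal protein genes fell together: 76 of the 77 tested members were called lower and none higher, against 17.7% of all rows called lower and 38.8% called in either direction. The median difference was -1.51 over the members and 0.09 over all rows. In 74 of 77 members all 4 differentiating libraries lay below all 4 proliferating ones, which was so for 17.8% of all rows. The quartiles of the member differences were -1.67 and -1.32. With the distributions of the libraries made equal by quantile normalization the median difference of the members was -0.84, and 60 were called lower.

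By role, 29 of 30 small-subunit genes were called lower, with a median difference of -1.55. All 43 large-subunit genes were called lower, with a median of -1.40, and all 3 stalk genes, with a median of -1.74. Rps27l was called lower as well (difference -1.20, SE 0.18, limma adjusted p = 0.00311). The quartiles of the subunits overlap, from -1.72 to -1.49 for the small and from -1.58 to -1.24 for the large subunit, and the difference between them was not tested.

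**Figure D3:**
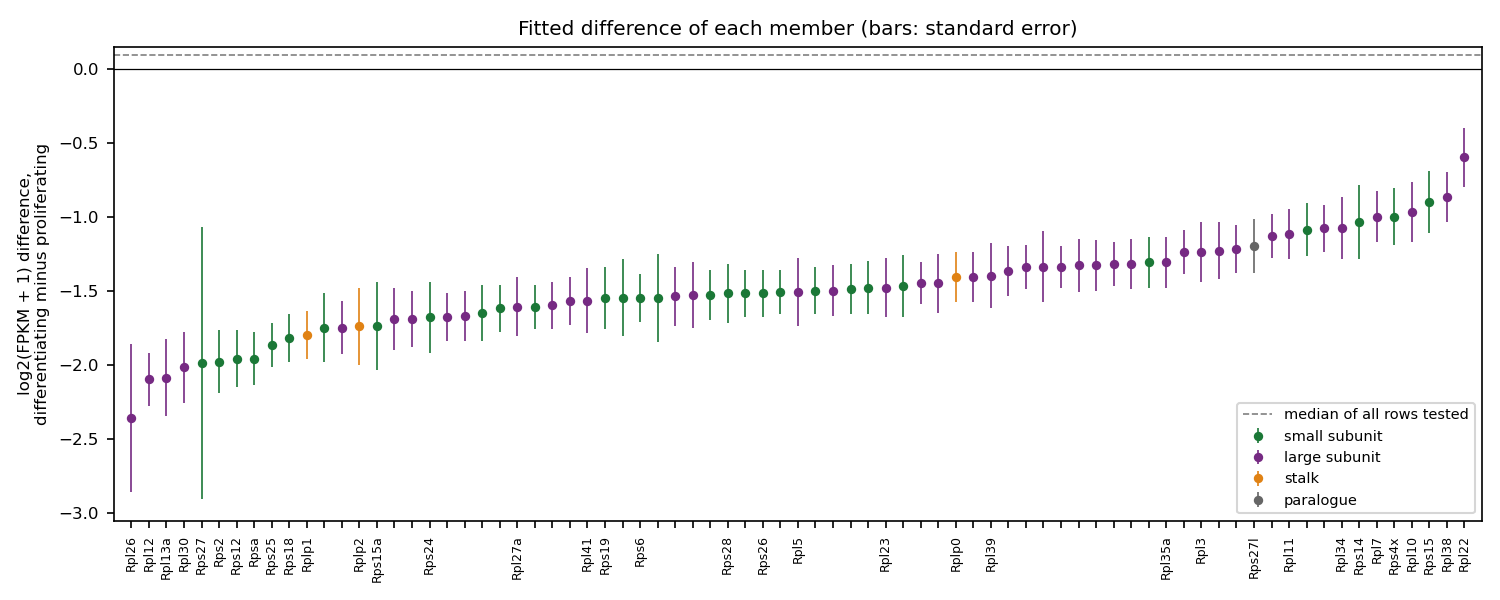
Fitted difference of each tested member between the states (y axis, log2(FPKM + 1), differentiating minus proliferating), ordered by size and coloured by role, with the members singled out in the text labelled and the standard error from limma as bars. All 77 points lie below 0, from Rpl26 at -2.36 to Rpl22 at -0.60, while the dashed median of all rows is at 0.09, and Rps27 has the widest error.

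Rpl12, whose protein lies at the base of the stalk (chr2:32817231-32819565 on mm9), was among the most strongly reduced members with a narrow error. It stood at 1188 FPKM in TRC, 1434 in GFP, 1116 in FUBP1 and 1163 in CIC. In the differentiating libraries it stood at 295 FPKM in 7, 290 in GFP-D, 222 in CIC-D and 340 in FUBP1-D. The 2 states were far apart, at 23.4% of the proliferating mean after differentiation (difference -2.10, SE 0.18, limma adjusted p = 6.6e-04). Rps25, a small-subunit protein used by viral internal ribosome entry sites, had the smallest adjusted p of all members. Its level went from 851 ± 60.3 to 232 ± 18.3 FPKM (SD, n = 4 each; difference -1.87, SE 0.15, limma adjusted p = 5.84e-04). Rps12 fell from 2070 ± 449 to 538 ± 156 FPKM, Rps2 from 1724 ± 504 to 428 ± 80.2 FPKM and Rps18 from 1712 ± 197 to 485 ± 68.6 FPKM (SD, n = 4 each). The laminin receptor gene Rpsa, whose protein is also part of the small subunit, fell to 25.3% of its proliferating mean (difference -1.96, SE 0.18, limma adjusted p = 7.85e-04). Rpl13a, whose protein is released from the ribosome in interferon-treated cells, fell by 2.09 (SE 0.26). Rplp1, with Rplp2 the acidic stalk protein that recruits elongation factors, fell from 2878 ± 314 to 831 ± 131 FPKM (SD, n = 4 each).

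Rpl26 and Rpl30 also belong to the 10 largest falls, but at much lower levels. Rpl26, whose protein binds Mdm2 and the p53 messenger RNA, was at 146 FPKM in TRC, 48.1 in GFP, 157 in FUBP1 and 82.8 in CIC. After differentiation it was at 24.8 FPKM in 7, 20.4 in GFP-D, 27.3 in CIC-D and 7.90 in FUBP1-D. TRC and FUBP1 were the high proliferating libraries and FUBP1-D was the lowest, but the states did not overlap (difference -2.36, SE 0.50, limma adjusted p = 0.0102). Rpl30 went from 44.4 ± 13.7 to 9.83 ± 0.741 FPKM (SD, n = 4 each).

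The smallest falls were those of Rpl22, Rpl38, Rps15, Rpl10, Rps4x and Rpl7, followed by Rps14. Rpl22, which has a paralogue, Rpl22l1, was at 156 FPKM in TRC, 221 in GFP, 151 in FUBP1 and 147 in CIC, and at 150 in 7, 96.1 in GFP-D, 91.4 in CIC-D and 108 in FUBP1-D. Library 7 lay above CIC, so the states overlapped, and the call was narrow (difference -0.60, SE 0.20, limma adjusted p = 0.0486) and held in 4 of 16 alternative fits, being lost without any 1 library except 7. Rpl38, whose protein favours translation of some Hox messenger RNAs, went from 1598 ± 293 to 866 ± 71.0 FPKM (SD, n = 4 each; difference -0.87, SE 0.17, limma adjusted p = 0.00849). Rps15, which is needed for export of small-subunit precursors, was at 2017 FPKM in TRC, 2233 in GFP, 1685 in FUBP1 and 753 in CIC, and at 856 in 7, 942 in GFP-D, 620 in CIC-D and 936 in FUBP1-D. Its overlap came from CIC, which lay below 3 of the 4 differentiating libraries, and its difference was -0.90 (SE 0.21, limma adjusted p = 0.0145). The call of Rps15 was lost without FUBP1 or FUBP1-D (-0.92 each), and that of Rps14 without CIC or CIC-D (-0.94 each). Under quantile normalization 16 members lost their call, among them Rpl22, Rpl38 (-0.06), Rpl7 (-0.17), Rps14 (-0.17), Rps15 (-0.18), Rps4x (-0.18) and Rpl10 (-0.21). When the model held 6 group means, the calls of Rpl22, Rpl38 (-0.85), Rpl10 (-0.93), Rps14 (-1.02) and Rps15 (-0.79) were lost.

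Levels were also set against the median member of the same library, which removes any shift common to the family. On this scale 10 members were higher in all 4 differentiating than in all 4 proliferating libraries, and 5 were lower. When each tested row was set against the median row of its library, 16.7% of rows were higher and 21% lower. The members' counts are below those shares, but the 2 references differ. The member median removes the members' common fall, and the median row does not. The shares therefore do not show whether the members' counts are few. The largest upward shift was that of Rpl22, from -2.63 to -1.77 on average, followed by Rpl38, from 0.61 to 1.21, and Rpl10, from -0.31 to 0.18. Rpl7, Rps4x, Rpl37, Rps21, Rpl11, Rpl9 and Rpl19 made up the rest. The 5 members that were lower were Rpl12, from 0.24 to -0.40, Rpl13a, from 0.52 to -0.11, Rps25, Rps18 and Rplp1. These shifts, of 0.86 or less on the log2 scale, are a description and were not tested.

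Members with known roles outside the general ribosome had negative differences, as every tested member did. Rpl5, Rpl11 and Rpl23, whose proteins bind Mdm2 and so stabilise p53, had differences of -1.51, -1.12 and -1.48, and that of Rpl11 lost its call under quantile normalization (-0.26). Genes mutated in Diamond-Blackfan anaemia had differences of -1.55 (Rps19), -1.68 (Rps24), -1.52 (Rps26) and -1.31 (Rpl35a). Rps6 went from 663 ± 78.9 to 226 ± 35.8 FPKM (SD, n = 4 each; difference -1.55, SE 0.16, limma adjusted p = 9.47e-04). Rplp0, the core protein of the stalk and a common reference gene in quantitative PCR, went from 1107 ± 293 to 414 ± 113 FPKM, or 37.4% of the proliferating mean. Rpl3, whose protein reaches toward the peptidyl transferase centre, had a difference of -1.24 (SE 0.20), which lost its call under quantile normalization (-0.41).

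Within the NT arm alone, where 2 libraries of each state give the only spread, all 77 members had a negative difference, with a median of -1.52 against 0.08 over all rows. Only Rpl12 and Rps12 were called lower and none higher, where 0.886% of all rows were called lower, 0.577% higher and 1.46% in either direction, while 75 members (97.4%) and 3123 rows (26.1%) had an unadjusted limma p under 0.05. Rpl12 had a difference of -2.15 (SE 0.28, limma adjusted p = 0.0441) and Rps12 of -2.15 (SE 0.29, limma adjusted p = 0.0459). Taking libraries of the same name, the median member difference was -1.70 from GFP to GFP-D, -1.33 from FUBP1 to FUBP1-D and -1.57 from CIC to CIC-D, and from TRC to 7 it was -1.22. The median was thus negative in every such pair. Both NT calls were lost without a filter, with a pseudocount of 5 and under quantile normalization. Over the whole table those fits called 58, 0 and 277 rows, against 175 in the main fit. Leaving out 1 NT library leaves 1 library in a group, so only the median member difference is given. It was -1.63 without TRC, -1.29 without GFP, -1.56 without 7 and -1.48 without GFP-D.

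The row for Rps27 needs its own account. It was listed at 89.2 FPKM in TRC and 84.3 in FUBP1, but at 7.02 in GFP and 5.78 in CIC, and at 7.88 in 7, 6.80 in GFP-D, 6.67 in CIC-D and 2.18 in FUBP1-D. Only TRC and FUBP1 were high, the states overlapped, and the difference of -1.99 had an SE of 0.92 (limma adjusted p = 0.121). Without GFP it was -2.75 and was called. Its locus (chr3:90016588-90017570 on mm9) is shared almost base for base with a second row, Gm9846 (chr3:90016588-90017569). Gm9846 was listed at 1282 FPKM in TRC, 2835 in GFP, 1551 in FUBP1 and 1753 in CIC, and at 1010 in 7, 760 in GFP-D, 735 in CIC-D and 760 in FUBP1-D. The sum of the 2 rows was 1902 ± 647 FPKM in proliferating and 822 ± 131 FPKM in differentiating libraries (SD, n = 4 each), so that the differentiating mean was 43.2% of the proliferating one. Rps27 held between 0.247% and 6.51% of this sum, and the sum, not the Rps27 row, is at the level of other small-subunit genes.

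Rpl34 was in the same position. It was listed at 9.65 to 13.3 FPKM in proliferating and 3.61 to 6.12 FPKM in differentiating libraries, while the overlapping row Rpl34-ps1 had 1235 to 2190 and 531 to 790 FPKM. The 2 rows together went from 1635 ± 463 to 668 ± 107 FPKM (SD, n = 4 each), and Rpl34-ps1 was itself called lower (difference -1.26, SE 0.25, limma adjusted p = 0.00766). Of the 77 members 8 had a locus overlapping another row, and for the other 6 the overlapping row was at most 22.9 FPKM. How the counting divided reads between overlapping rows, and whether it used strand, is not given in the sources used here. The levels of Rps27 and Rpl34 are uncertain for that reason.

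**Figure D4:**
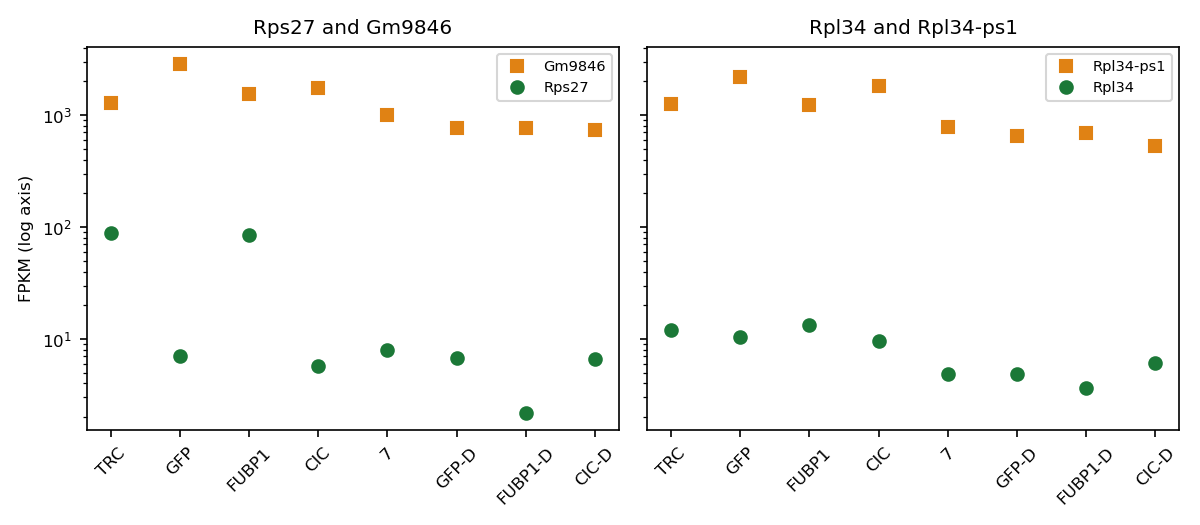
FPKM (log axis) of Rps27 with its overlapping row Gm9846 (left) and of Rpl34 with Rpl34-ps1 (right) in each library. Rps27 is at 89.2 FPKM in TRC and 84.3 in FUBP1 and below 8 FPKM in the other libraries, and both overlapping rows are far above the member in all 8 libraries.

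Many members have near-identical processed copies in the genome, among which reads can be split. In the GENCODE M21 transcripts, 73 of 77 members had at least 1 other gene matching at least 95% over at least 80% of the coding sequence, up to 57 such genes for Rpl21. The median difference was -1.54 for the 4 members with no copy, -1.46 for the 30 with 1 to 4 copies and -1.53 for the 43 with 5 or more. By coding length, the 10 tested members of up to 300 bases had a median difference of -1.36, the 46 of over 300 and up to 600 bases -1.52 and the 21 longer ones -1.51. Their median standard errors were 0.18, 0.18 and 0.17. The largest spread within the proliferating state was 15.4-fold, for Rps27, which belongs to the shortest set and had an SE of 0.92, against a median of 1.51-fold over all tested members.

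Libraries of the same state also differed from each other. The median member was 0.28 higher in GFP than in TRC on the log2(FPKM + 1) scale, with 64 of 77 members higher, whereas FUBP1 was -0.02 from TRC. In the differentiating state GFP-D was -0.12 and FUBP1-D -0.06 from 7. The order of members was closest between TRC and FUBP1, with a Spearman rho of 0.978 across the 77 members, which share library and annotation, against 0.892 between TRC and GFP. The SD of the member differences was 0.15 for FUBP1 against TRC and 0.63 for GFP against TRC. The library labelled FUBP1 was therefore nearer to TRC than the other NT library was.

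Against NT, with the states as repeats, no member was called in the libraries labelled FUBP1, and no row of the table was (0%), while 256 rows and none of the members had an unadjusted limma p under 0.05. The median member difference was -0.09, with 54 of 77 negative, against 0.02 over all rows. It became 0.01 without GFP. Rpsa, Rpl38 and Rps14 had the smallest p among the members. Rpsa was at 884 FPKM in FUBP1 against 855 in TRC and 641 in GFP, and at 224 in FUBP1-D against 208 in 7 and 155 in GFP-D. It was above both controls in each state, with a fitted difference from the NT libraries of 0.29 (SE 0.22, limma adjusted p = 0.999), but by only 0.05 from TRC and 0.11 from 7, the nearer controls. The differences of Rpl38 and Rps14 were -0.25 (SE 0.21) and -0.36 (SE 0.31). FUBP1 lay below both proliferating controls for 42 of 77 members, against 27.7% of all rows, and above both for 9, against 26.7%. Such counts, here and for CIC below, required no margin. The median member of FUBP1 was -0.02 from TRC and -0.30 from GFP. FUBP1-D lay above both differentiating controls for 23 of 77 members, against 34.9% of rows, and below both for 20, against 28.3%.

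In the CIC-targeted libraries the members were mostly lower, without a call. The median difference from NT was -0.32, with 71 of 77 members negative, against -0.04 over all rows. In the proliferating state its size depended on the control. The median member of CIC was -0.11 from TRC, with 32 of 77 higher, but -0.45 from GFP, with 5 higher. That of CIC-D was -0.42 from 7, with 5 higher, and -0.28 from GFP-D, with 6 higher. None of the members was called, where 0.109% of all rows were (0.0919% lower and 0.0167% higher), and 13 members (16.9%) and 1368 rows (11.4%) had an unadjusted limma p under 0.05. CIC-D lay below both differentiating controls for 70 of 77 members, against 34.1% of all rows, and above both for 4, against 30.8%. CIC lay below both proliferating controls for 42 of 77 members, against 39.9% of rows, and above both for 2, against 31.4%. The members' share of the table followed the same order, as given above.

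Rps15 had the smallest p among the members in this comparison. Its 753 FPKM in CIC was 37.3% of TRC and 33.7% of GFP, and its 620 FPKM in CIC-D was 72.5% of 7 and 65.9% of GFP-D. It was therefore low in both states, and more so in the proliferating one (difference -1.01, SE 0.26, limma adjusted p = 0.267). Rplp0 was at 667 FPKM in CIC against 1262 in TRC and 1240 in GFP, and at 274 in CIC-D against 489 in 7 and 373 in GFP-D (difference -0.77, SE 0.21, limma adjusted p = 0.278). Rpl27a, at 403 FPKM in CIC against 668 in TRC and 961 in GFP, had a difference of -0.77 (SE 0.25, limma adjusted p = 0.349). CIC and CIC-D were the lowest libraries of their states for each of these 3 genes, but none passed over the whole table.

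The libraries labelled FUBP1 and the CIC-targeted libraries were compared in the same fit, and both comparisons above share the 4 NT libraries. The median member was 0.23 higher with the FUBP1 label, with 64 of 77 positive, against 0.07 over all rows. No member was called, where 0.0501% of all rows were, and 9 members (11.7%) and 1341 rows (11.2%) had an unadjusted limma p under 0.05, which are near-equal shares. Rplp0 (0.92, SE 0.24, limma adjusted p = 0.335), Rpsa (0.95, SE 0.25, limma adjusted p = 0.348) and Rpl41 (0.94, SE 0.32, limma adjusted p = 0.404) had the smallest p. Whether an arm's difference from NT itself differed between the states was tested in the same model with 6 group means. No member and no row (0%) was called for FUBP1 or for CIC, and no member had an unadjusted limma p under 0.05. The median of this term over the members was 0.20 for FUBP1 and -0.05 for CIC.

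In some pairs of libraries the members on chromosomes 7 and 10 moved with the other rows of their chromosome, but this did not hold for every chromosome or pair. Chromosome 7 carries 14 tested members, among them Rps19, Rpl13a, Rpl27a, Rps15a and Rplp2. All 14 were higher in FUBP1 than in TRC, by 0.09 to 0.41 with a median of 0.30, whereas 16 of the other 63 members were higher, with a median of -0.04. The 542 other rows of chromosome 7 with a mean of at least 10 FPKM had a median of 0.28 in the same pair of libraries, and the medians of the other chromosomes lay between -0.21 and -0.01. The same rows were higher by 0.26 in GFP than in TRC and by 0.27 in GFP-D than in 7, but by 0.02 in FUBP1-D than in 7. Of the 14 members, 13 were higher in GFP than in TRC, but only 8 in GFP-D than in 7, with a median of 0.06. Rps19, for example, stood at 764 FPKM in TRC, 1311 in GFP, 970 in FUBP1 and 850 in CIC. On chromosome 14 the other rows had a median of -0.37 in GFP against TRC, while its 2 members were higher, by 0.40 and 0.96.

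Chromosome 10 carries Rps12, Rps15, Rps26 and Rpl41. All 4 were lower in CIC than in TRC, by a median of -1.09, and the 401 other rows of the chromosome had a median of -0.35 there, the lowest of any chromosome. The other 73 members had a median of -0.05 in this pair. The contrast depends on the control used. In GFP 3 of the 4 were also lower than in TRC, with a median of -0.22 against -0.10 for the other rows. From GFP to CIC the differences were -0.54 (Rps12), -1.57 (Rps15), -0.41 (Rps26) and -0.82 (Rpl41). The median of all 77 members in that pair was -0.45. The 4 genes were also lower in FUBP1 than in TRC, with a median of -0.20 against -0.21 for the chromosome's other rows, and lower in CIC-D than in 7, with -0.45 against -0.21, where the other 73 members had a median of -0.41. In FUBP1-D they were higher than in 7, with a median of 0.25 against 0.10. Rps15 and Rpl41, named above for the CIC-targeted libraries, thus lie on a chromosome whose other rows moved the same way by a smaller amount. The part of the chromosome in these 2 differences was not tested.

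**Figure D5:**
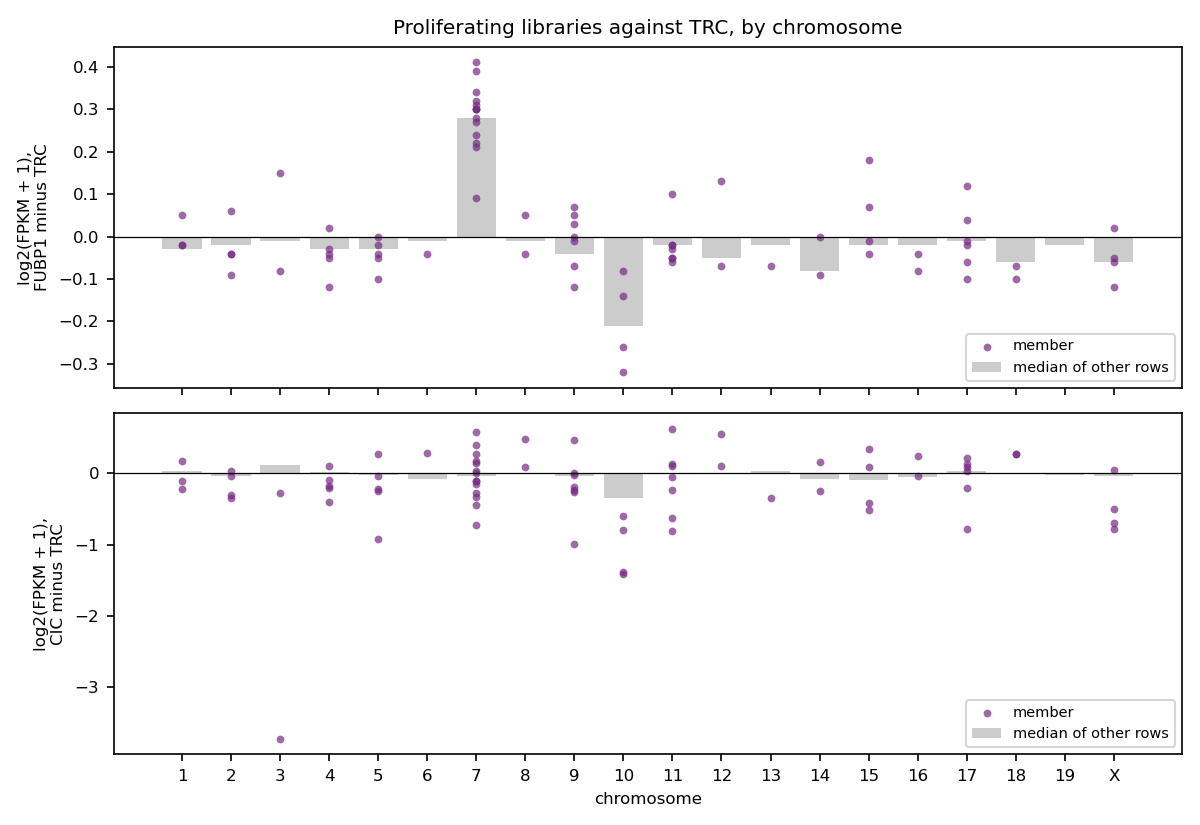
Difference of each tested member from TRC (points, log2(FPKM + 1)) in FUBP1 (top) and CIC (bottom) by chromosome, with the median of the other rows of at least 10 FPKM as grey bars, on different y scales. The 14 members of chromosome 7 all lie above 0 in the top panel and the 4 members of chromosome 10 all lie below 0 in both, and the point at -3.73 on chromosome 3 is Rps27.

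The other genes of translation were read by list from the same fit, where 17.7% of all rows were called lower and 21.2% higher. All 7 tested genes of a list of ribosomal proteins outside the naming rule and related genes were called lower with differentiation, with a median of -1.51. The list includes Rps19bp1, which encodes a protein that binds Rps19 and is not itself a ribosomal protein. Among them were Gnb2l1, which encodes the scaffold protein RACK1 of the small subunit (997 ± 239 to 295 ± 49.9 FPKM, SD, n = 4 each), and Fau, which encodes a fusion of a ubiquitin-like protein with a ribosomal protein. Rpl22l1, the paralogue of Rpl22, went from 256 ± 55.7 to 70.1 ± 16.3 FPKM (SD, n = 4 each; difference -1.86, SE 0.24, limma adjusted p = 0.0019). It fell more than Rpl22 did, with differences of -1.86 and -0.60, although the difference between these genes was not tested. Of 18 further messenger RNAs with a terminal oligopyrimidine tract, 15 were called lower and none higher, with a median of -1.02. Eef1a1, the elongation factor that delivers aminoacyl-tRNA, went from 6243 ± 1876 to 2296 ± 683 FPKM (SD, n = 4 each), and Vim was not called (difference 0.40, limma adjusted p = 0.254).

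Of 27 initiation factors 20 were called lower and 1 higher, with a median of -0.93, and the gene that rose was Eif4a2 (0.69, SE 0.19, limma adjusted p = 0.0245), whose paralogue Eif4a1 fell (-1.81, SE 0.23, limma adjusted p = 0.00179). Of 64 ribosome biogenesis genes 52 were called lower and 1 higher, with a median of -1.12. The box C/D ribonucleoprotein genes Nop56, Fbl and Nop58 had the largest falls of that list (-2.31, -2.24 and -2.18), and Sbds, which helps to release Eif6 from the large subunit, was the gene that rose (0.84, SE 0.16, limma adjusted p = 0.00621). Mitochondrial ribosomal proteins were called lower in 58 of 76, with none higher and a median of -0.77. Of 13 regulators 3 were called lower and 1 higher, and the share called lower was near the 17.7% of all rows. Myc (-1.35, SE 0.22, limma adjusted p = 0.00391), Larp4 (-0.92) and Yy1 (-0.61) fell and Rps6kb2 rose (0.90, SE 0.22, limma adjusted p = 0.0185). No gene of these 6 lists was called against NT in the libraries labelled FUBP1 or in the CIC-targeted ones.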

How the data were processed

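A total of 8 TruSeq RNA libraries were sequenced. The authors deposited 1 table of FPKM values per gene and library, on mm9; bcl2fastq 2.17, cutadapt, TopHat2 2.0.11 and Cufflinks 2.1.1 are named in the submitters' processing notes, and the strand setting is not given in the sources used here. The header names no unit, which was read as FPKM from Cufflinks and from the values. Columns were matched to libraries by name. Rows with at least 1 FPKM in at least 2 libraries (11968 of 20793) were tested on log2(FPKM + 1) by limma 3.58.1, run in R 4.3.3, using its moderated two-sided test with variance modelled on mean level and Benjamini-Hochberg adjustment over all rows (threshold 0.05). The main model had state and arm (4 residual degrees of freedom), and differentiation within NT and the terms for arm by state came from 6 group means (2 residual degrees of freedom). The scripts were tested on simulated data. Since depth is unknown, no counting error is given. Copies came from blastn 2.17.0 against GENCODE M21 and promoters from RefSeq on GRCm38.p6. The members and lists were chosen with earlier results of these data known. Genes were named by highest and lowest mean level per subunit, largest called differences, smallest p, and known function, and the smallest falls, Rps25, Rpl22, Rpl7, Rps4x and Rps14 among them, and members singled out by chromosome, overlap or copies were chosen after their values were seen. Other pseudocounts, filters, scalings and left-out libraries were tried. Some members and list genes enter the counts but are not reported here by name.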

Additional observations from a re-analysis of the deposited data

Results flagged for a closer look

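For the members named here the 2 states, or the 2 arms, moved in opposite directions in single libraries, and these contrasts were not tested individually. The matching model terms were called for no member over the 11968 rows. Values are log2(FPKM + 1) differences of 1 library from the mean of its 2 NT controls. In the library labelled FUBP1 and then in FUBP1-D, they were 0.89 and -1.40 for Rpl26 and 0.24 and -0.35 for Rpl34, the 2 members that were above the controls first and below them afterwards. The 2 controls differed, however. From TRC alone, FUBP1 was at 0.10 for Rpl26 and 0.15 for Rpl34, and GFP at -1.58 and -0.17.

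The other members were below the mean of the controls in FUBP1 and above it in FUBP1-D. They were Rps12 (-0.20 and 0.47), Rpl27 (-0.03 and 0.15), Rps7 (-0.52 and 0.09), Rps23 (-0.14 and 0.08), Rpl10a (-0.07 and 0.22) and Rps18 (-0.16 and 0.15). Rpl7a (-0.08 and 0.19), Rpl12 (-0.23 and 0.22), Rpl35 (-0.24 and 0.13) and Rps20 (-0.22 and 0.20) did likewise. So did Rps6 (-0.21 and 0.11), Rpl6 (-0.15 and 0.19) and Rpl32 (-0.27 and 0.14). From TRC alone, FUBP1 was at -0.32 for Rps12 and between -0.12 (Rps6) and -0.01 (Rpl10a) for the rest of these members. In CIC and then CIC-D, Rpl8 was at 0.21 and -0.11 and Rpl34 at -0.19 and 0.28. The difference of Rps27 between the states was -4.75 from FUBP1 to FUBP1-D and 0.18 from CIC to CIC-D, the row whose locus is shared with Gm9846.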

How the results depend on the processing

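All 77 members had a negative difference between the states in each of the 16 alternative fits, and 57 were called lower in every fit; the number called ranged from 60 (quantile normalization) to 76. The median moved to -0.84 under quantile normalization and otherwise lay between -1.39 and -1.58. Median-of-ratios scaling and quantile normalization put the median of all rows at 0.03 and 0, from 0.09. Within NT, members called lower were 4 under median-of-ratios scaling, 0 without a filter, 4 without a mean-variance trend, 5 with a pseudocount of 0.1, 0 with a pseudocount of 5 and 0 under quantile normalization. Leaving out 1 NT library gave 0 to 7 members called and a median from -1.63 (without TRC) to -1.29 (without GFP), and the median under quantile normalization was -0.79. No member was called against NT or between the arms in any alternative. Rows called over the whole table ranged from 2477 to 4857 for the states, 0 to 442 within NT, 2 to 35 for CIC and 0 to 19 between the arms. Of 528 alternatives for named members, 505 kept direction and call. These numbers count the fits without FUBP1 and without FUBP1-D separately, although both give the same difference between the states. The same holds for CIC and CIC-D. Rps27 was called without GFP (-2.75), and Rps15 was lost with the library-name block (-0.79). Without a filter 10 members lost their call, namely Rpl10, Rpl22, Rpl26, Rpl38, Rpl39, Rpl41, Rps4x, Rps14, Rps15 and Rps21. The causes of these changes were not tested.

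Pairing by replicate number was not run, since the labels give none and those used here follow accession order. The paired fit was a block on library name over the 3 pairs that share one, which called 75 members lower with a median of -1.57. Leaving out members with proteins under 100 residues was planned but a protein table was not used here; in its place, chosen after seeing the data, leaving out members of up to 300 coding bases left 67 members, all called lower, with a median of -1.52. Depth is unknown, which limits the precision of the low members most.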
